A study of Mus musculus with 6 samples.

Results

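Glycolysis and the transcriptional response to low oxygen were followed through 39 listed mouse genes in RM1 prostate cancer cells. The list was applied by gene symbol to a table of 23791 named genes. All 39 were found, and all 39 passed the low-count filter that left 13832 genes for testing. The set holds 3 transporters, 9 enzymes of upper glycolysis, 7 of lower glycolysis, 3 regulators of glycolytic flux, 4 genes of pH and vessel control, 6 mitophagy and stress targets, 4 oxygen-sensing genes, and 3 genes of collagen hydroxylation and disulfide formation.

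Glycolysis splits glucose into pyruvate in the cytosol, and lactate dehydrogenase and the monocarboxylate transporters then dispose of the product as lactate when it is not sent to mitochondria. Hypoxia-inducible factor 1 (HIF-1) couples this pathway to oxygen. Its alpha subunit is hydroxylated by prolyl hydroxylases and degraded while oxygen is present, and at low oxygen it accumulates and binds short response elements near genes for glucose transporters, glycolytic enzymes, vessel growth and mitophagy. Much of this control acts on the HIF-1 alpha protein, so Hif1a mRNA is not a readout of HIF-1 activity.

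RNA was sequenced from 6 libraries of C57BL/6 mouse RM1 cells, a transplantable prostate cancer line. RM1 (replicates a and b) was the unlabelled parental culture. RM1536 (replicates a and b) was the eCFP- and luc2-expressing derivative, made by pooling several labelled clones, so it differs from RM1 in label and in clonal selection together. The bone and lung libraries (1 each) came from RM1536 cells that had lost the PKH26 dye, a mark of cell division, and were taken from the bone and lung of 1 mouse on day 16 after intracardiac injection. Cells of all 4 groups were isolated by flow sorting and then grown in DMEM with 5% fetal bovine serum to 85% confluency, so the bone and lung values describe cells after regrowth in culture and not cells inside the tissue. Nothing in the labels tells if a and b were separate cultures. The p-values therefore measure the spread between these libraries, which may be technical, and the bone and lung groups have no replicate of their own. That spread exceeded counting noise, which alone would give a chi-square per degree of freedom near 1. Between duplicates the value was 64.95 in RM1 and 65.3 in RM1536. The source of the spread was not tested.

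Each library held between 22763835 and 30303566 counts, and the members took 1.49 to 2.12% of them. Levels are given as CPM, the counts-per-million value after scaling of the library totals by trimmed mean of M values. A level of 3 counts corresponded to 0.099 to 0.132 CPM of the unscaled totals. The epithelial keratins Krt8 (966 to 2367 CPM) and Krt18 (275 to 458 CPM) were present in all 6 libraries. Among 10 leukocyte markers the summed level was 4.37 to 45.5 CPM, most of it from Cd68, and the pan-leukocyte gene Ptprc stayed at or below 0.0668 CPM. The myeloid gene Lyz2 was at 0 in the 4 RM1 and RM1536 libraries and at 2.68 CPM in bone and 2.88 CPM in lung. Col1a1, a collagen gene of fibroblasts and bone cells, stood at 604 CPM in lung, against 0.791 CPM in bone and 8.85 to 27.8 CPM in the cultures, and it made up most of the 676 CPM summed over 6 stromal markers in lung. The fibroblast surface gene Thy1 was at 0 in lung, as the only 1 of those 6 markers without counts there. In RM1 a, RM1 b, RM1536 a and bone, 1 of the 6 was likewise at 0. The part of these other-cell genes in the results below was not tested.

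Sequence was available for the starts of most members, and 4 promoters that hold HIF-type core letters are printed. Slc16a3 was called between the cultures and came nearest the threshold in bone, while Ldha, Bnip3 and Ero1l, called in no comparison with the low-count filter in place, show the differences between duplicates and between bone and lung. They were chosen after their matches and values were seen. RefSeq promoter windows (GRCm38.p6, from 250 bases before to 50 after each start) matched 36 of the 39 genes, with 54 windows. Slc2a3, Ndrg1 and Bhlhe40 had none. The letters ACGTG and GCGTG, which form the core of the hypoxia response element, were searched on both strands, so a palindromic CACGTG counts once on each strand. The stretches below are the 250 bases before the start, read 5′ to 3′ on the gene's strand, and capitals mark every match to either core.
Slc16a3: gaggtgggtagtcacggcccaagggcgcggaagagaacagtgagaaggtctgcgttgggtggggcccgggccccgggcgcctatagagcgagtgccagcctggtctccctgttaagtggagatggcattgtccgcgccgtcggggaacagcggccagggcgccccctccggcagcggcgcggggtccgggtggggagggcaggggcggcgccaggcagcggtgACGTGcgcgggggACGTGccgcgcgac
Ldha: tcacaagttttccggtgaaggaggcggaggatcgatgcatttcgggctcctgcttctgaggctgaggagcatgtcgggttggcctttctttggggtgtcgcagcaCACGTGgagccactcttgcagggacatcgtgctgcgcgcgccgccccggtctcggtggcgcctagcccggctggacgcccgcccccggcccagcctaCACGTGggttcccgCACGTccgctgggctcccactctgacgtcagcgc
Bnip3: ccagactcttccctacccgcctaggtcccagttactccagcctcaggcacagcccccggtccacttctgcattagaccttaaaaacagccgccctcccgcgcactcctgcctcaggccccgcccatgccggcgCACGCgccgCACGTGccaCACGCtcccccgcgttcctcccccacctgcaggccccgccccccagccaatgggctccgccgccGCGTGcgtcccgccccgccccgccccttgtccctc
Ero1l: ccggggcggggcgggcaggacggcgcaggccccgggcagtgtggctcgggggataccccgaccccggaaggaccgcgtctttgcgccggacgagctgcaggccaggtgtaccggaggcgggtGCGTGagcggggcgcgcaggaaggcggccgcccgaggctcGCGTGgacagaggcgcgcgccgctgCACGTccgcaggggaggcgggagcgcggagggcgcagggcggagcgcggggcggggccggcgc
The Slc16a3 stretch (chr11:120948817-120949066, plus strand) held 2 matches, both ACGTG. The Ldha stretch (chr7:46845554-46845803, plus strand, the first of 2 windows) held 5 matches, and these include 2 palindromes. The Bnip3 stretch (chr7:138909507-138909756, minus strand) and the Ero1l stretch (chr14:45318573-45318822, minus strand, listed in RefSeq as Ero1a) held 5 and 3.

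ACGTG was present in 53.7% of the 54 member windows, in 25.1% of 12843 windows of tested genes and in 19.6% of all 32851 windows of that length. GCGTG was in 51.9%, 50% and 32.4% of the same sets. At least 1 of the 2 letter sets was in 75.9% of member windows, 61.3% of windows of tested genes and 43.8% of all windows. Member windows and windows of tested genes were alike in CG content, with medians of 20.5 and 20 CG dinucleotides, against 7 over all windows. The element TGATGNAA, bound by the stress factor ATF4, was in 0 of the 54 windows and in 2.34% of windows of tested genes. The 1 window of Car12, a gene called between the cultures, held neither core. These are letter matches and do not show binding. The genes were listed for glycolysis and the hypoxia response, so their share of core letters is not independent evidence. Some windows of the same gene overlap, as for Aldoa, Eno1 and Pfkm, so the same bases can be counted more than once.

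The enzymes of the common pathway were the most abundant members, and the hypoxia-restricted carbonic anhydrase and hormone genes were near the limit of counting. On a scale of CPM per kilobase of exon (GENCODE M21 exon union), averaged over the 6 libraries, Gapdh was highest at 933. Pkm followed at 759, Pgk1 at 414, Eno1 at 402, Pgam1 at 401, Ldha at 338, Aldoa at 335 and Tpi1 at 293. The main glucose importer Slc2a1 stood at 144 on that scale, while its paralog Slc2a3 was lowest of all 39, at 0.39. Car9, a carbonic anhydrase that is widely used as a hypoxia marker, was at 0.583, the vasodilator peptide gene Adm at 0.531 and Ankrd37 at 0.711. Among genes of the same step, Hk1 (36.0 per kilobase) exceeded Hk2 (23.1 per kilobase), and Pfkl (35.2) exceeded Pfkp (11.9) and Pfkm (11.6). These values depend on the exon unions, which were 6.675 kilobases for Pfkl, 13.401 for Pfkp and 3.34 for Pfkm. In mean CPM without the length, Pfkl was at 235, Pfkp at 159 and Pfkm at 38.8. Levels of enzymes with near-identical copies elsewhere in the genome (Gapdh, Pgk1, Eno1, Pkm and others) depend on how reads were assigned. Part of the exon length of Ankrd37 (26.4%), Bnip3 (22.3%) and Pkm (15.3%) is shared with other annotated genes, and reads cannot be attributed there without a known strand setting.

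**Figure D1:**
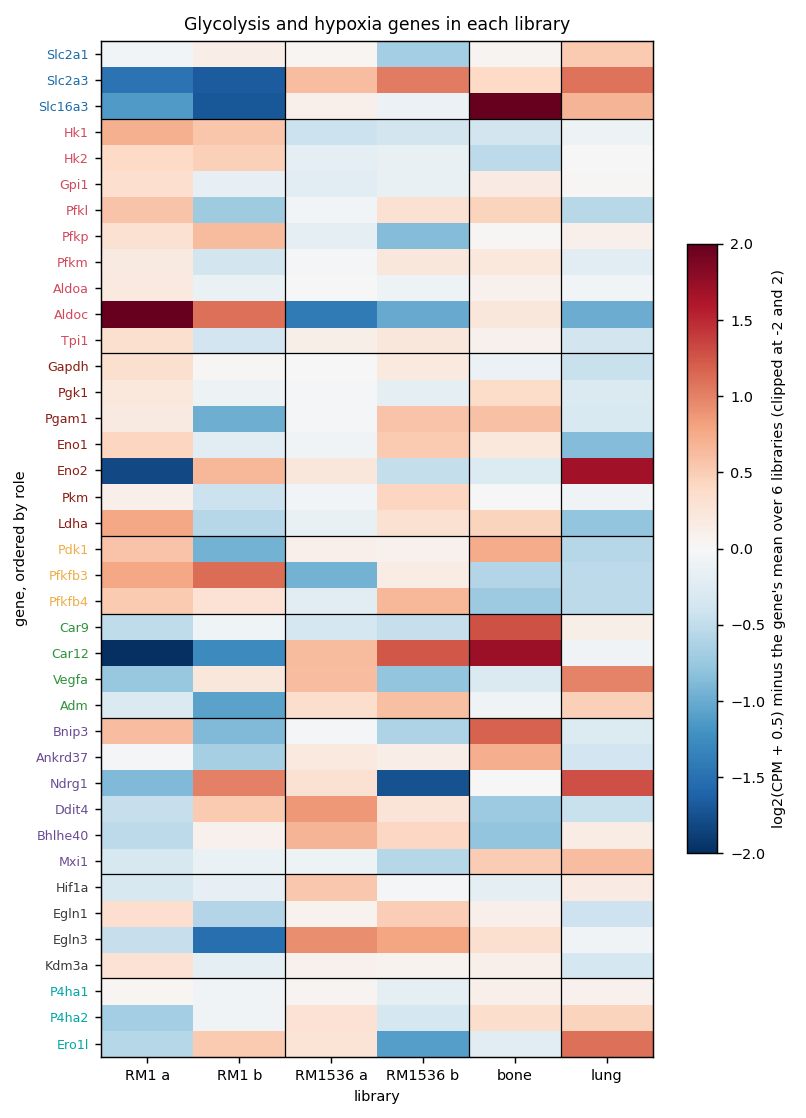
Level of each of the 39 genes in the 6 libraries, as log2(CPM + 0.5) minus the gene's mean over the libraries, with the colours clipped at -2 and 2; rows are grouped by role and columns are libraries. Slc2a3, Car12 and Aldoc separate RM1 from the other libraries, and Slc16a3 is highest in bone.

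The labelled line RM1536 was first set against the parental RM1, which addresses what differs between the injected cells and their source. RM1536 had more mRNA for a lactate exporter, a high-affinity glucose importer and an acid-base enzyme, and less for a hexokinase and an aldolase. Of the 39 genes, 3 rose and 2 fell at an adjusted p of 0.05 by edgeR's quasi-likelihood test. That is 5 of 39 genes, a larger share than the 780 of all 13832 genes tested (5.64%). The 2 shares were not compared by a test. Over all 39 members, the 5 included, 21 were higher and 18 lower, with a median log2 fold change of 0.01, against 0.02 over all genes tested.

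Slc2a3 encodes GLUT3, a glucose importer of high affinity that is typical of neurons (chr6:122727809-122801640, GRCm38, minus strand). Its level was 0.434 and 0.319 CPM in RM1 a and b, and 3.46 and 4.82 CPM in RM1536 a and b, so the groups did not overlap. The log2 fold change was 3.44 ± 0.45 (SE derived from the F statistic, adjusted p = 0.0173). It remained a rare transcript, with 9 and 13 counts in the RM1 libraries. The bone and lung libraries, at 2.90 and 5.01 CPM, were also above both RM1 libraries. The main importer, Slc2a1 (GLUT1), was at 472 and 536 CPM in RM1 and at 505 and 306 CPM in RM1536, and its groups overlapped.

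Slc16a3 encodes MCT4, the monocarboxylate transporter that exports lactate from glycolytic cells (chr11:120948480-120960868, plus strand). It measured 59.3 and 40.1 CPM in RM1 and 141 and 121 CPM in RM1536, a log2 fold change of 1.40 ± 0.26 (adjusted p = 0.0401). The 2 RM1536 libraries lay above both RM1 libraries. Car12, a membrane carbonic anhydrase that hydrates carbon dioxide outside the cell (chr9:66713686-66766845, plus strand), measured 3.94 and 8.14 CPM in RM1 and 32.1 and 49.1 CPM in RM1536 (log2 fold change 2.75 ± 0.42, adjusted p = 0.0244). Again the groups were separate. The related Car9 was at 0.668 and 1.06 CPM in RM1 and at 0.805 and 0.712 CPM in RM1536, and those values overlapped.

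Hk1, the housekeeping hexokinase that traps glucose as glucose 6-phosphate (chr10:62268855-62379908, minus strand), fell from 475 and 429 CPM in RM1 to 216 and 226 CPM in RM1536 (log2 fold change -1.03 ± 0.20, adjusted p = 0.0415). Aldoc, the brain-type aldolase (chr11:78322968-78327781, plus strand), fell from 29.0 and 14.4 CPM to 2.09 and 2.95 CPM (log2 fold change -3.10 ± 0.44, adjusted p = 0.0206). The main aldolase Aldoa was at 1114 and 890 CPM in RM1 and at 969 and 910 CPM in RM1536. Upper glycolysis held both called decreases, 2 of 9 genes, a larger share than the 489 decreases among all 13832 genes tested. With so few genes this was not tested. None of its genes was called higher. The other role groups had 3 to 7 genes each, too few to read their lack of a called decrease as a difference. No gene of lower glycolysis was called among 7, with log2 fold changes from -0.16 to 0.58. The 7 include Ldha, which turns pyruvate into lactate: it was at 1780 and 699 CPM in RM1 and at 935 and 1283 CPM in RM1536.

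**Figure D2:**
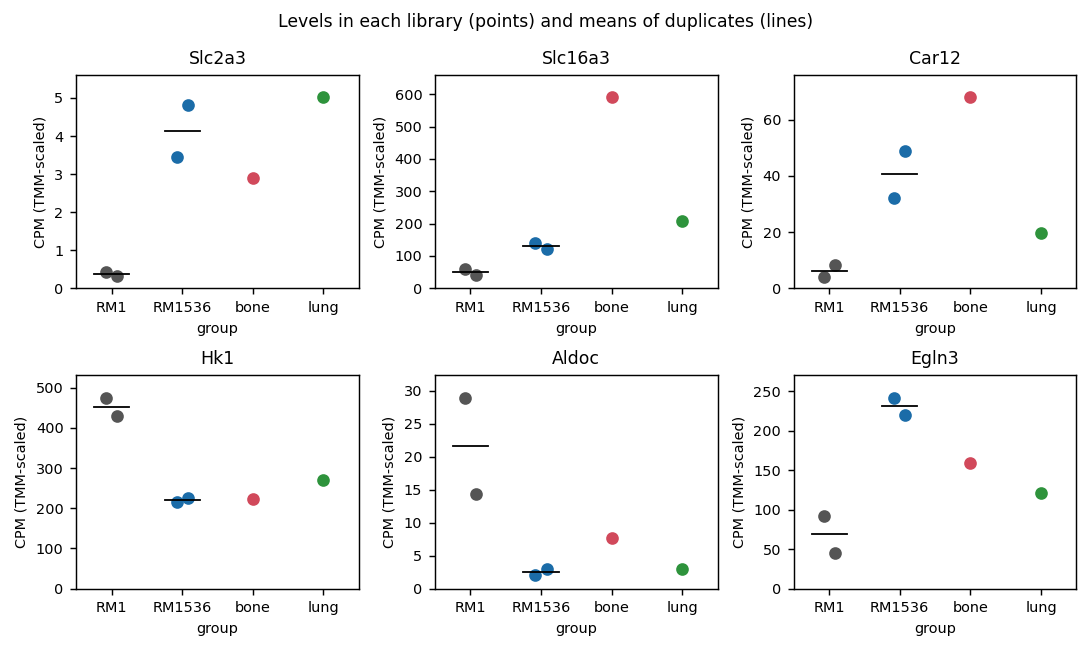
CPM on a linear axis in each library for the 5 genes called between RM1 and RM1536 and for Egln3, 1 point per library, with lines at the means of duplicates. The RM1 and RM1536 points are separate for Slc2a3, Slc16a3, Car12, Hk1 and Aldoc, and also for Egln3, which was not called. Bone has the highest Slc16a3 value, 590 CPM.

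Egln3, the prolyl hydroxylase PHD3 that is itself a HIF target, measured 92.4 and 44.5 CPM in RM1 and 242 and 220 CPM in RM1536 (log2 fold change 1.75 ± 0.37). Its adjusted p of 0.0512 missed the threshold. DESeq2 (adjusted p = 0.000126) and limma-voom (adjusted p = 0.0405) placed it past 0.05. The remaining 5 members that had an unadjusted p under 0.05 failed the correction. In all, 28.2% of the members had such a p, against 23.0% of all tested genes. Hk2, Pfkp and Pfkfb3 stood at log2 fold changes of -0.61, -0.97 and -1.38, with adjusted p-values of 0.129, 0.118 and 0.168. Pfkp is the platelet-type phosphofructokinase, and Pfkfb3 makes the fructose 2,6-bisphosphate that activates phosphofructokinase. Adm and the repressor gene Bhlhe40 stood at 1.97 and 0.74, with adjusted p-values of 0.191 and 0.178. Hif1a was at 186 and 206 CPM in RM1 and at 338 and 228 CPM in RM1536, and its log2 fold change of 0.53 was not called. The RM1 and RM1536 values of Egln3, of these 5 uncalled members and of Hif1a did not overlap either. How often this happened among all tested genes was not counted, so separate groups add no support to the calls.

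The 5 calls depended on having both libraries of each culture. With RM1536 b left out no member was called, and the adjusted p-values of the 5 genes were 0.0595 to 0.126, with directions as before. Without RM1536 a, Slc2a3 and Car12 remained past the threshold. Without RM1 b, Slc2a3, Car12 and Aldoc remained. Without RM1 a, Hk1 was lost and Egln3 was added.

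Bone-derived cells were next compared with RM1536, the cells that had been injected. No member passed the test, beside 2 genes called among all 13832 (0.0145%). At an unadjusted p under 0.05 there were 5 members higher and 2 lower (17.9% of 39), against 9.92% of all tested genes. Over the members the median log2 fold change was 0.09, against -0.03 over all genes. The comparison has 1 bone library, whose spread is assumed to equal that of the cultures.

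Slc16a3 came nearest: bone was at 590 CPM, above the 141 and 121 CPM of RM1536 and above the 209 CPM of lung. Its log2 fold change was 2.17 ± 0.30 and its adjusted p 0.0843. It passed with DESeq2, and also when only RM1536 and bone entered the fit (adjusted p = 0.0192) or RM1 b was left out (adjusted p = 0.0289). With limma-voom the adjusted p was 0.111, and without RM1536 a or RM1536 b it was 0.157 and 0.210. Without the low-count filter it passed, and over all alternatives the adjusted p ran from 3.99e-10 to 0.210. Car9 reached 3.51 CPM in bone, where RM1536 had 0.805 and 0.712 CPM. The bone value rested on 80 counts in bone (log2 fold change 2.21 ± 0.53, adjusted p = 0.230). Bnip3, a mitophagy receptor and HIF target, was at 107 CPM in bone and at 46.6 and 30.5 CPM in RM1536, with an adjusted p of 0.492. Aldoc, at 7.64 CPM in bone, was above RM1536 and below RM1. Mxi1, a MYC antagonist, was at 126 CPM in bone and at 83.0 and 59.7 CPM in RM1536 (adjusted p = 0.400).

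The 2 members on the lower side at an unadjusted p under 0.05 were Bhlhe40 and Ddit4. Bhlhe40 was at 35.0 CPM in bone and at 97.8 and 81.4 CPM in RM1536 (log2 fold change -1.35 ± 0.35, adjusted p = 0.268). DESeq2 called it, while limma-voom called no member. Ddit4 encodes REDD1, a stress-induced brake on mTORC1, and was at 88.8 CPM in bone and at 269 and 176 CPM in RM1536 (log2 fold change -1.32 ± 0.50, adjusted p = 0.460).

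Lung-derived cells also had no member past the test against RM1536, and no gene of the 13832 passed (0%). At an unadjusted p under 0.05, 1 member was higher and 1 lower (5.13% of 39), below the 13.8% of all tested genes (894 higher and 1008 lower). DESeq2 called 359 genes and no member. The member median was -0.12. Mxi1 was at 137 CPM in lung (log2 fold change 0.94 ± 0.28, adjusted p = 0.321). Eno1, the main enolase, was at 1122 CPM in lung and at 1970 and 2950 CPM in RM1536 (log2 fold change -1.13 ± 0.42, adjusted p = 0.341).

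The largest positive differences in lung belonged to Eno2, Ndrg1 and Ero1l. Eno2, the neuronal enolase, was at 65.6 CPM in lung and at 23.7 and 14.4 CPM in RM1536. Ndrg1, a differentiation and stress gene induced by hypoxia, was at 242 CPM in lung and at 121 and 29.1 CPM in RM1536. Ero1l, the oxidase that forms disulfide bonds in the endoplasmic reticulum, was at 509 CPM in lung and at 288 and 110 CPM in RM1536. All 3 lung values were above both RM1536 values, and the adjusted p-values were 0.418, 0.457 and 0.406. The RM1536 duplicates themselves differed in these genes, by 2.04 on the log2(CPM + 0.5) scale for Ndrg1.

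Bone and lung, which shared a mouse, were compared with each other as the organ contrast. No member was called, beside 1 gene among 13832 (0.00723%). At an unadjusted p under 0.05 there were 2 members (5.13%), both higher in bone, below the 8.47% of all tested genes. For Slc16a3 the difference was 1.50 ± 0.37 on the log2 scale (adjusted p = 0.411). DESeq2 called this gene and no other member, and limma-voom called none. Car12 was at 68.0 CPM in bone and 19.6 CPM in lung (log2 fold change 1.80 ± 0.57, adjusted p = 0.511).

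The mean of bone and lung against RM1536 likewise gave no called member, beside 4 genes overall (0.0289%). At an unadjusted p under 0.05, Slc16a3 (log2 fold change 1.42 ± 0.26, adjusted p = 0.158), Car9 and Mxi1 were on the higher side and Bhlhe40 and Ddit4 on the lower side. These 5 are 12.8% of the members, near the 13.3% of all tested genes. Slc16a3 was the 1 member called by DESeq2, and limma-voom called none. These comparisons share the RM1536 libraries, so their values are not independent of each other.

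**Figure D3:**
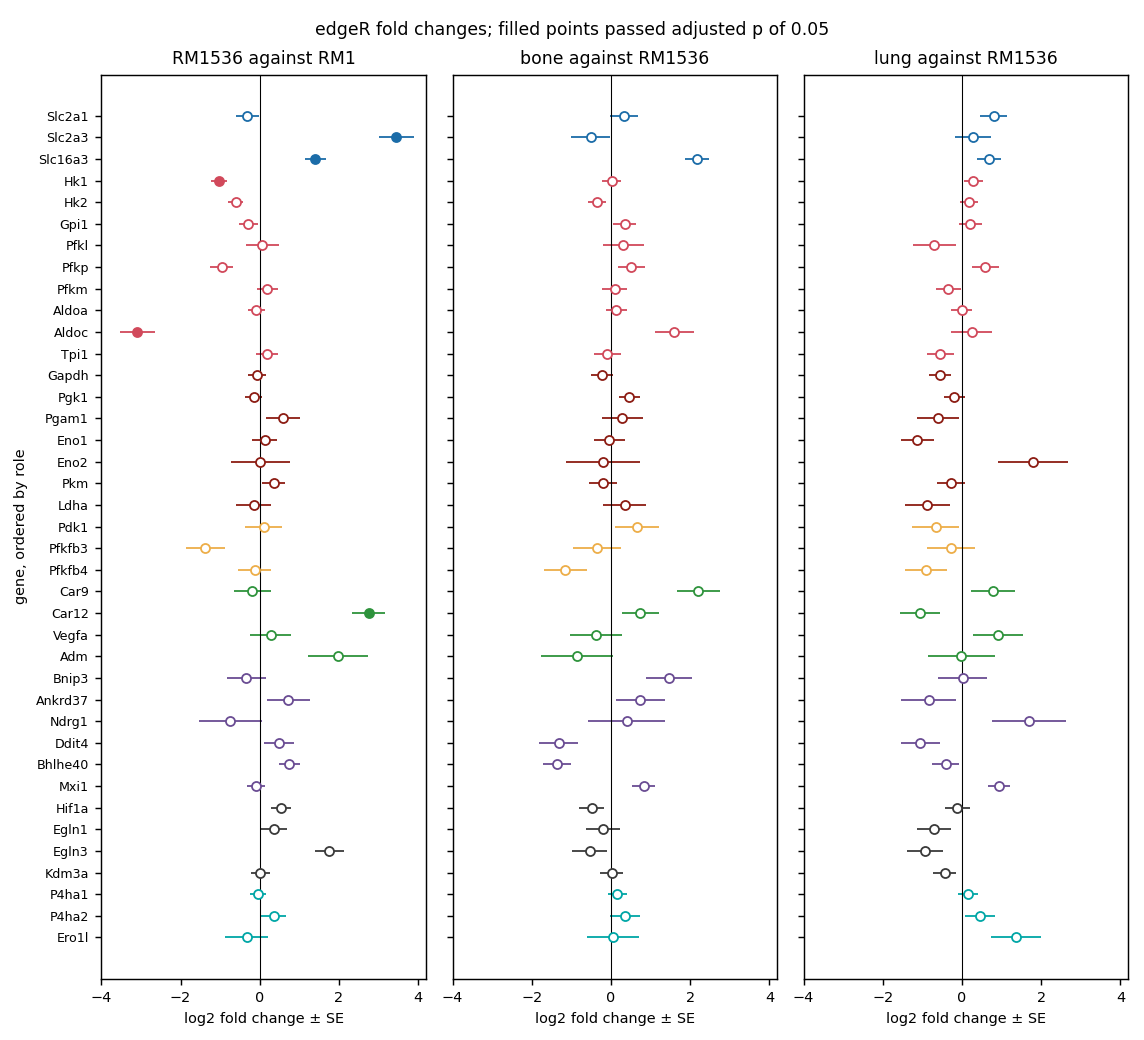
Log2 fold change of each of the 39 genes with its standard error, in the comparisons of RM1536 with RM1, bone with RM1536 and lung with RM1536; filled points passed an adjusted p of 0.05 by edgeR. The 5 filled points are all in the RM1536 against RM1 comparison.

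The members were also compared within pairs of libraries. A larger share of them than of all tested genes lay apart in both duplicate pairs and between bone and lung. On the log2(CPM + 0.5) scale, RM1 a and RM1 b were at least 2-fold apart in 9 of the 39 members (23.1%), against 5.17% of all tested genes. Between RM1536 a and b the count was 4 (10.3%), against 5.56%. Between bone and lung it was 14 (35.9%), 10 of them higher in bone, against 10.8%. Lung and RM1536 a went the other way, with 5.13% of the members against 8.83% of all tested genes. The other pairs of bone or lung with an RM1536 library had 17.9% to 25.6% of the members, against 8.59% to 17.5%. These are descriptions of single pairs of libraries, and they have no test.

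Differences between duplicates and the difference between bone and lung ran in part along the same genes. The pairs were oriented, after their values had been seen, as RM1 b minus a, RM1536 a minus b and lung minus bone, which share no library. Across the 39 genes the Pearson correlation of RM1 b minus a with lung minus bone was 0.705 (Spearman 0.675). With RM1536 a minus b it was 0.578 (Spearman 0.523), and between RM1536 a minus b and lung minus bone it was 0.528 (Spearman 0.446). Over the other 13793 tested genes the same Pearson values were 0.447, 0.438 and 0.306, so a positive relation was present outside the list too. RM1 b minus a had the same sign as RM1536 a minus b in 69.2% of the members and in 63.1% of the other genes, and the same sign as lung minus bone in 84.6% and 64.6%. RM1536 a minus b and lung minus bone shared the sign in 23 members (59.0%), below the 61.6% of the other genes. Genes are not independent replicates, and no p is attached.

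By sign alone, most of the enzymes fell on one side. All 3 pairs agreed in direction for 22 members (56.4%, against 45.2% of the other genes): 11 were higher in RM1 b, RM1536 a and lung, and 11 were lower. The higher group held Ndrg1, Ero1l, Vegfa, Eno2, Ddit4, Bhlhe40, Slc2a1, Hif1a, Mxi1, P4ha2 and Pfkp. The lower group held Pgam1, Eno1, Ldha, Aldoc, Pfkl, Pfkm, Gapdh, Tpi1, Pkm and Gpi1, which are 10 glycolytic enzymes, plus the prolyl hydroxylase Egln1. The higher group also held 2 glycolytic enzymes, Eno2 and Pfkp, and Hk1, Hk2, Aldoa and Pgk1 were mixed. In the lower group the smallest of the 3 differences ran from 0.07 for Gpi1 to 0.61 for Pgam1 on the log2 scale. It was 0.08 for Pkm, 0.12 for Tpi1 and 0.19 for Gapdh. The members past 1.5-fold in all 3 pairs numbered 5, with Ndrg1, Ero1l, Vegfa and Eno2 on the higher side and Pgam1 on the lower side. That is 12.8% of the members, against 3.97% of the other genes.

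Vegfa, the vessel growth factor, was at 177 CPM in RM1 a and 351 CPM in RM1 b. In RM1536 it was at 464 CPM in a and 174 CPM in b, and it stood at 246 CPM in bone and 601 CPM in lung. Its order across the 3 pairs was thus the same, with RM1 b, RM1536 a and lung as the high libraries. Ndrg1 measured 53.1 CPM in RM1 a and 198 CPM in RM1 b. Eno2 had the widest ratio inside RM1 among the 39, at 5.45 and 32.3 CPM. Ldha went the other way, at 1780 CPM in RM1 a and 699 CPM in RM1 b, at 935 and 1283 CPM in RM1536 a and b, and at 1413 CPM in bone and 602 CPM in lung. Lung and RM1 b had the lowest Ldha of the 6 libraries. The summed level of the 7 lower-glycolysis genes was 10343 CPM in RM1 b, 12012 CPM in RM1536 a and 9487 CPM in lung, and it was 15259 CPM in RM1 a, 15587 CPM in RM1536 b and 13397 CPM in bone.

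Not every hypoxia target followed that order. Bnip3 and Pdk1, which encodes the kinase that closes pyruvate dehydrogenase, were lower in RM1 b than in RM1 a and lower in lung than in bone. Pdk1 was at 89.9 and 31.1 CPM in RM1 a and b, at 64.7 and 64.4 CPM in RM1536 a and b, at 102 CPM in bone and at 40.7 CPM in lung. Bnip3 was at 72.2 CPM in RM1 a and 25.4 CPM in RM1 b, and at 38.8 CPM in lung. HIF targets in this list thus took both directions: Vegfa, Ndrg1 and Ero1l were high where Pdk1, Bnip3, Ldha and Pgam1 were low in the RM1 pair and in the bone and lung pair.

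**Figure D4:**
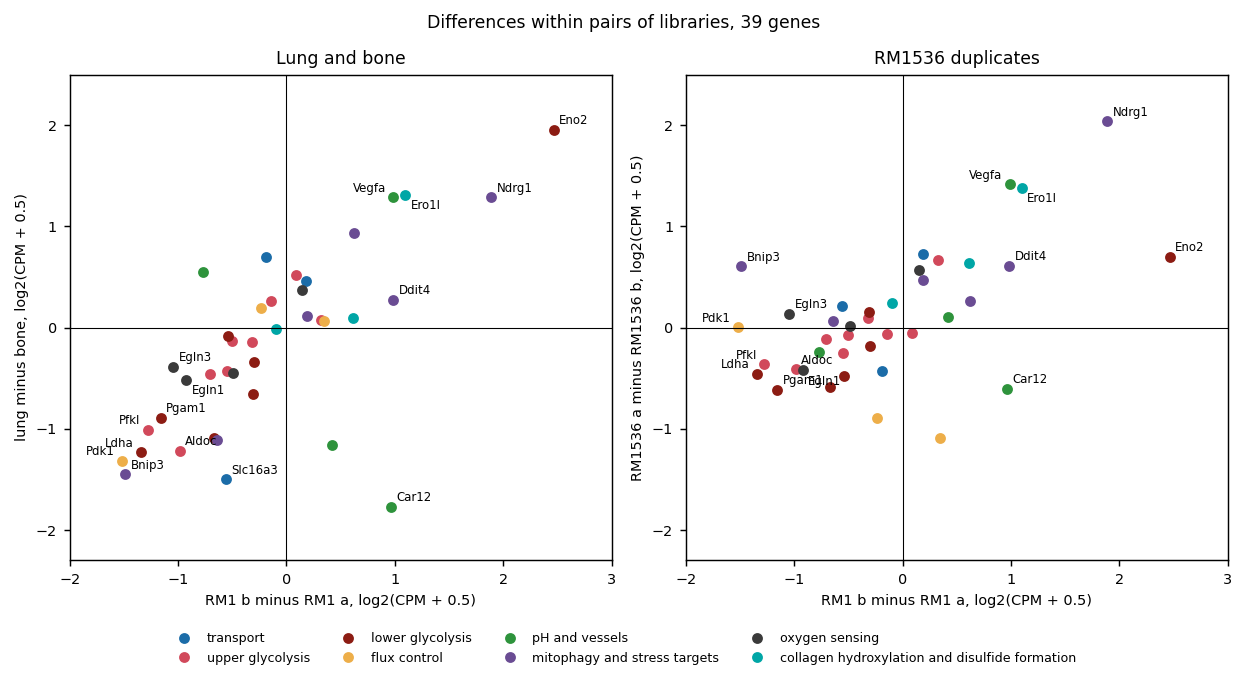
Difference in log2(CPM + 0.5) between RM1 b and RM1 a on the x axis, against RM1536 a minus b and lung minus bone on the y axes, 1 point per member gene. The sign is shared with RM1 b minus a by 27 of 39 points for RM1536 and by 33 of 39 for lung and bone.

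The following members had no call in any comparison of the main fit. Adm, described above for RM1536 against RM1, passed there under some alternative settings, such as no low-count filter. P4ha1, the catalytic subunit of collagen prolyl hydroxylase, ranged from 217 to 266 CPM, and Kdm3a, a HIF-induced histone demethylase, from 37.7 to 59.4 CPM. Gpi1, the isomerase of the second step, ranged from 458 to 673 CPM, and Pgk1, which makes the first ATP of the pathway, from 751 to 1186 CPM. Pfkfb4, a paralog of Pfkfb3, was at 2.72 to 7.99 CPM and was lowest in bone and lung. Ankrd37, at 0.460 to 2.02 CPM, and Adm, at 0.106 to 1.42 CPM, rested on 3 to 46 counts per library.

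The wider pathway was read from 6 further lists, chosen with earlier results of these data known, with 121 of their 125 genes in the table. In RM1536 against RM1, other glycolysis and lactate genes had 1 rise and 1 fall among 28 tested, beside 5.64% of all tested genes called. Bpgm, the red-cell-type mutase that makes 2,3-bisphosphoglycerate, rose from 11.1 and 9.70 CPM to 24.8 and 42.9 CPM (log2 fold change 1.70 ± 0.32, adjusted p = 0.0408). Pdp1, the phosphatase that reopens pyruvate dehydrogenase, fell from 29.9 and 22.0 CPM to 7.56 and 5.89 CPM (log2 fold change -1.95 ± 0.29, adjusted p = 0.0235). The second lactate transporter Slc16a1 (MCT1) was level at 332 and 305 CPM in RM1 and 331 and 320 CPM in RM1536, with 502 CPM in bone and 212 CPM in lung.

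Other hypoxia targets had 3 rises and 2 falls among 46 tested in that comparison, beside the same 5.64% of all tested genes. Lox, which cross-links collagen, rose from 1.20 and 0.779 CPM to 49.1 and 89.6 CPM (adjusted p = 0.00614), and bone and lung stood at 97.5 and 98.1 CPM. Cxcr4, the chemokine receptor that guides cells to bone marrow, rose from 2.74 and 2.80 CPM to 64.9 and 16.1 CPM (adjusted p = 0.0339), and stood at 168 CPM in bone and 63.6 CPM in lung. Stc1 rose from 20.9 and 24.5 CPM to 54.0 and 59.8 CPM (log2 fold change 1.33, adjusted p = 0.0284). Unlike Lox and Cxcr4, it was below both RM1536 libraries in bone (27.4 CPM) and lung (11.3 CPM), and lung was below both RM1 libraries. Rora fell from 2.61 and 5.24 CPM to at most 0.0402 CPM (adjusted p = 0.0167). No gene was called among 4 gluconeogenesis, 8 pentose phosphate, 15 oxygen-sensing machinery and 4 glucose-responsive genes tested. Lists this short would hold few calls or none at that share. None of the 6 lists had a called gene in any comparison with bone or lung. Among further hypoxia targets with a mean of at least 5 CPM, Pgf, a vascular growth factor of the VEGF family, had the largest difference of bone from RM1536, at 37.1 CPM in bone and 20.0 CPM in lung against 3.82 and 1.00 CPM in RM1536 (adjusted p = 0.143 and 0.295).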

How the data were processed

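RNA-seq of 6 libraries in 4 groups was analysed from a deposited table of raw counts per gene, made by the authors; the submitters' processing notes name the GRCm38 build, TopHat2 2.1.10, HTSeq and edgeR. For counting, the annotation and strand setting were not given in the sources used here. A row without a gene name (0.00626 to 0.0083% of counts) was left out. The members and lists were chosen with earlier results of these data known.

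Counts were scaled by trimmed mean of M values and fitted in 1 model of 4 groups with edgeR 4.0.16 (quasi-likelihood F test, filterByExpr, Benjamini-Hochberg over 13832 genes, call at adjusted p 0.05) in R 4.3.3. With 2 residual degrees of freedom, the spread came from the duplicates. Each SE was derived from the test, as the absolute log2 fold change divided by the square root of the F statistic. The scripts were tested on simulated data. Alternatives were DESeq2 1.42.0, limma-voom (limma 3.58.1), other scalings and filters, single libraries left out and a replicate block. Named were all members and, per further list, called genes and up to 3 largest changes at a mean of 5 CPM or more. Some genes of the further lists are not reported here.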

Additional observations from a re-analysis of the deposited data

How the results depend on the processing

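The median log2 fold change of the 39 members moved by less than its spread between duplicates (0.128) in every alternative but the mean of bone and lung without the lung library (0.10 in place of -0.09). Leaving out 1 library gave -0.11 to 0.10 there. No fold change of a member with an unadjusted p under 0.05 in the main fit reversed. Under the alternatives, 36 of these values passed the threshold newly and 15 no longer passed. Weaker members did reverse. For RM1536 against RM1 without RM1 b, 11 of 39 members changed direction, up to a main log2 fold change of 0.742 in size. Genes of the further lists were not followed in this way. For RM1536 against RM1, 780 genes were called, 1471 with DESeq2 and 2394 without the low-count filter, where 10 members were called; leaving out 1 library gave 196 to 513 genes and 0 to 5 members. The letters a and b do not show pairing: deviations of same-lettered libraries correlated at -0.438. A replicate block by letter gave 295 genes and 1 member (Car12), and the crossed block, added after seeing the data, 3165 genes and 13 members. For bone against RM1536 (2 genes), DESeq2 gave 380 genes and 2 members, limma-voom 0 genes, no filter 859 genes and 6 members, only the groups compared 155 genes and 1 member, and leaving out 1 library 0 to 128 genes and 0 to 1 members. For lung against RM1536 (0 genes), DESeq2 gave 359 genes, no filter 1299 genes and 7 members, only the groups compared 6 genes, and leaving out 1 library 0 to 7 genes. For bone against lung (1 gene), DESeq2 gave 221 genes and 1 member, no filter 754 genes and 9 members, limma-voom, upper-quartile scaling and a CPM of at least 1 in 2 libraries 0 genes, and leaving out 1 library 1 to 32 genes; a fit of only these groups has no residual degrees of freedom. For the mean of bone and lung (4 genes), DESeq2 gave 467 genes and 1 member, no filter 1225 genes and 5 members, limma-voom and the CPM filter 0 genes, only the groups compared 90 genes, and leaving out 1 library 0 to 75 genes. The cause of these shifts was not tested. Slc2a3, Car9, Adm and Ankrd37 rest on few counts.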
